A study of Mus musculus with 6 samples.

Results

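The transcriptome of unstimulated migratory type 1 conventional dendritic cells (cDC1) was read from the 3 unstimulated arrays of a series of 6. Each deposited intensity was turned into its log2, which is called the level here. Probe sets with exactly 1 gene symbol were kept, the brightest probe set stood for its gene, and the 12780 genes were ranked by their mean level over the 3 arrays. The 300 brightest, 2.35% of all genes, are described, together with the ranks of lineage, transcription factor, surface and secreted genes. With 1 group there was no contrast, so no test was made. Errors are standard deviations over the 3 arrays.

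Dendritic cells take up antigen and show it to T cells. cDC1 are the subset that takes antigen from other cells and presents it on MHC class I to CD8 T cells, and the factors IRF8, BATF3, ID2 and NFIL3 act in its development. In skin, such cells mature and travel through the lymph to the draining node by following ligands of the receptor CCR7. On the way they raise costimulatory ligands and peptide-loaded MHC class II, and CD40 on their surface lets CD4 T cells act on them.

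The cells came from the skin-draining lymph nodes of wild-type C57BL/6 mice. They were sorted as B220-, CD326- cells with high MHC II and intermediate CD11c that were XCR1+, Sirpa- and CD40+. The sort thus kept cells that already carried CD40 protein, and the other 3 arrays of the series hold cells stimulated with anti-CD40, which were not compared here. RNA was taken on columns and labelled with a kit made for picogram amounts. The labels call the samples biological replicates. The sources used here give neither the age of the mice nor whether each sample came from separate animals, so the SDs may be partly technical.

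The 3 arrays ordered the genes alike over the whole range and less so at its top. Pearson's r over the 12780 genes was 0.915 for replicates 1 and 2, 0.957 for 1 and 3 and 0.958 for 2 and 3, over genes that share array and amplification and are not independent. Spearman's rho within the 300 brightest was 0.534, 0.768 and 0.896 for the same pairs. The interquartile range of gene levels was 2.19, 1.74 and 1.92 in replicates 1, 2 and 3. Replicate 1 was thus spread most widely. The median level of all genes was 5.71, with quartiles at 4.94 and 6.86. No gene had a geometric mean intensity under 20, a level of 4.32, and genes outside the deposited table were not analysed here. Ranks order probe sets by brightness. Probes differ in how well they bind, so a rank gives no number of transcripts. Among the 677 genes with several probe sets, the brightest lay a median of 0.70 above the dimmest, and by over 3 in 50 genes.

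The brightest genes were those of protein synthesis, the cytoskeleton and antigen presentation, with cell surface genes of migratory dendritic cells among them. Gas5, a non-coding host gene of small nucleolar RNAs, ranked first at 13.33, 13.50 and 13.51 in replicates 1, 2 and 3. Cst3, which encodes the protease inhibitor cystatin C, ranked 2 at 13.27, 13.19 and 13.33. B2m, the light chain of MHC class I, ranked 4 at 12.88, 13.36 and 13.29. Replicate 1 was the lowest array for Gas5 and B2m, and replicate 2 for Cst3. Rn7sk, the small nuclear RNA that restrains transcription elongation, ranked 3 (13.25 ± 0.17, SD, n = 3), and Actb, cytoplasmic beta-actin, ranked 5 (13.15 ± 0.28). Tpt1, the translationally controlled tumour protein, followed at 13.13 ± 0.17 and Eef1a1, the elongation factor that brings tRNA to the ribosome, at 13.10 ± 0.55. Eef1a1 had the widest spread of the 30 brightest genes, with 13.64 in replicate 1 and 12.54 in replicate 2. Of the 30 brightest, Cd63, Tmem123, H2-Aa and Ccr7 belong to the lists of maturation or sort genes, at ranks 9, 18, 20 and 22. Srgn, the proteoglycan core of secretory granules, ranked 30. The non-coding AW112010 ranked 26. Some ranks rest on 1 probe set that stands far above the gene's others. The gap to the next probe set was 4.52 for Gas5, 2.75 for Baiap2l1, an actin-binding adaptor at rank 28, and 5.68 for Hk1, annotated as a hexokinase, at rank 78. Among genes named further on, it was 3.98 for Cdkn1b, 2.84 for Cflar, 2.76 for Irf1 and 2.47 for Socs2.

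**Figure D1:**
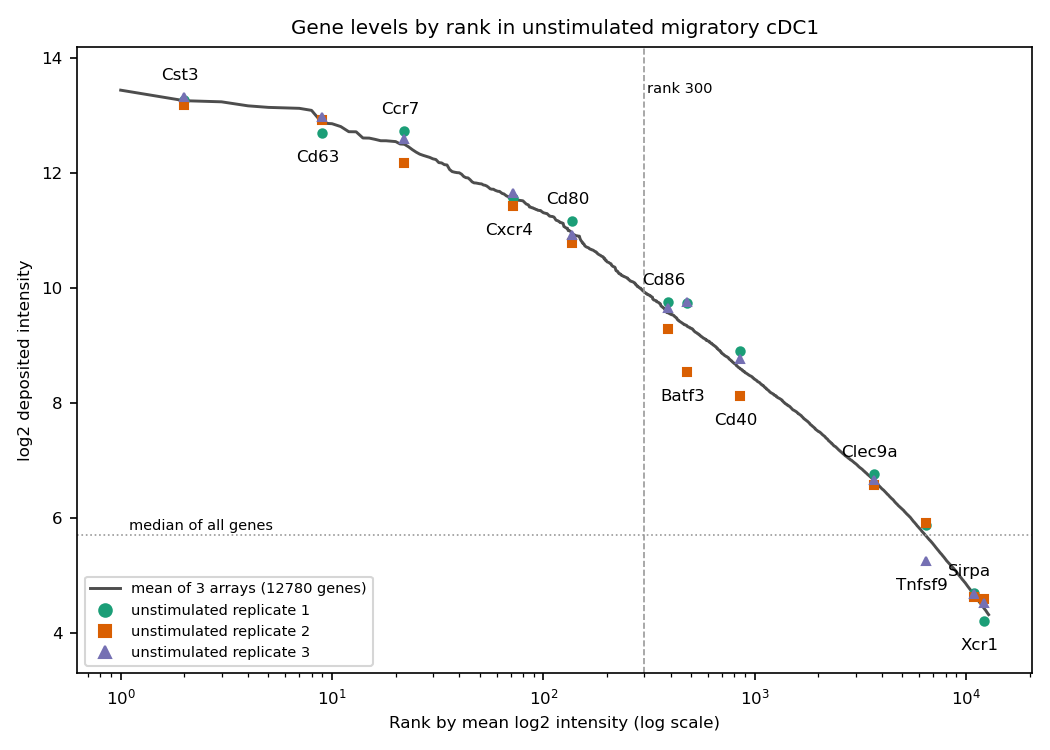
Mean level of 12780 genes by rank (line, log axis) with the 3 unstimulated arrays as points for genes named in the text. The vertical dashed line marks rank 300 at a level of 9.93 and the dotted line the median of all genes at 5.71. Cst3, Cd63, Ccr7, Cxcr4 and Cd80 lie left of rank 300, and Sirpa and Xcr1 lie at the low end.

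The 300 genes together held 35.2%, 38.2% and 38.1% of the summed intensity of all genes in replicates 1, 2 and 3. By RefSeq type, 295 were protein coding, 3 long non-coding, 1 a small nuclear RNA and 1 an RNase P RNA. Their median gene span was 10.4 kb, against 19.2 kb over all genes with a span. Of the 300, 145 were in at least 1 of the gene lists used here and 155 in none. The 145 made up 15.4% of the 944 measured list genes, beside 2.35% of all genes. The lists were drawn up with dendritic cells and abundant housekeeping genes in mind, so the higher share is a description of the lists. The same 2.35% stands beside every later count of list members in the 300. A list with none in the 300 is close to that share. Counts of list members leave out entries with no probe set in the table. The table holds no probe set with an unstimulated geometric mean under 20, so dim members may be among the entries left out.

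Promoter sequences are shown for 4 of the brightest genes whose window holds the kB consensus, the letters that NF-kB factors bind, because CD40 signals through NF-kB and all 4 were already bright without stimulation. B2m and H2-Aa encode chains of MHC class I and class II, Rel encodes the NF-kB subunit c-Rel and Nfkbia the inhibitor IkB-alpha. Each line gives the 250 bases before the gene start from RefSeq, build GRCm38.p6, 5′ to 3′ on the gene's strand, with the match in capitals.
B2m, chr2:122147437-122147686, + strand: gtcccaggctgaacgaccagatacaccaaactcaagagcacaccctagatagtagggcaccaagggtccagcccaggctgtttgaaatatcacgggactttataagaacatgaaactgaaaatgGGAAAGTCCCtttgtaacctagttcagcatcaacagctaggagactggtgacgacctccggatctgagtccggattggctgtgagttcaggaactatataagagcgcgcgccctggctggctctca
H2-Aa, chr17:34287824-34288073, - strand: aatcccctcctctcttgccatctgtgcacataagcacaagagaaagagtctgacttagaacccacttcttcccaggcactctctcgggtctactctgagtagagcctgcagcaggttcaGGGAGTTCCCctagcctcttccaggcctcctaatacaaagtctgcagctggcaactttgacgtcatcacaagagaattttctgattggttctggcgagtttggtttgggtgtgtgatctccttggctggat
Rel, chr11:23770970-23771219, - strand: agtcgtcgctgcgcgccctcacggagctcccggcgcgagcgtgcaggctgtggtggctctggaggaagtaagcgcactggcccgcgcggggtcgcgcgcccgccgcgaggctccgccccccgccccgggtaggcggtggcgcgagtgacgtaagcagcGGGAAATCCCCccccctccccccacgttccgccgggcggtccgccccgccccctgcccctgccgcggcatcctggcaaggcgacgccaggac
Nfkbia, chr12:55492648-55492897, - strand: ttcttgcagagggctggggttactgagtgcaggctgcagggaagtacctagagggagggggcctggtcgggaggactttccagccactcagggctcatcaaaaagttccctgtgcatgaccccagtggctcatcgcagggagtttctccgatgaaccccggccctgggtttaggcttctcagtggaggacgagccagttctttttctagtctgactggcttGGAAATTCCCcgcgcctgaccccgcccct

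The match began 126 bases before the gene start in B2m, 131 in H2-Aa, 92 in Rel and 29 in Nfkbia. In Rel, 2 matches overlap and span 11 bases. The GC content of the 250 bases ran from 50.4% in H2-Aa to 77.6% in Rel. The H2-Aa sequence also holds the cyclic AMP response letters TGACGTCA and the B2m sequence holds TATAAA on the opposite strand. The share of genes with the kB consensus was close to the same among the 300 as among all measured genes. Over windows of 250 bases before to 50 after the gene start, with both strands searched, overlaps between motifs allowed and a gene counted if any of its windows matched, it was in 20 of 239 genes of the 300 with a window (8.37%). It was in 854 of 10131 of all measured genes with one (8.43%) and in 5.81% of all 32851 windows of the table. By list it was in 10 of 28 genes of CD40 and NF-kB signalling (35.7%), 4 of 12 chemokines (33.3%), 2 of 14 class I genes (14.3%) and 6 of 63 oxidative phosphorylation subunits (9.52%). It was in 2 of 33 maturation genes (6.06%) and 2 of 44 ribosomal protein genes (4.55%).

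Some other letters differed more between the 300 and all measured genes. TATAAA, the TATA box, was in 15.5% of the 300 and 9.08% of all genes, and TGACGTCA in 7.53% and 3.32%. GAAANNGAA, the core bound by interferon regulatory factors, was in 12.1% and 8.22%. CCGGAAG, bound by ETS factors, was in 18.4% and 18.3%. GGGCGG was in 67.8% and 64.3%, CCAAT in 38.9% and 41.1%, CACGTG in 9.21% and 11.05%, TGANTCA in 3.77% and 6.39% and GAGGAAGT in 4.18% and 3.36%. In all 32851 windows the shares were 13.6% for TATAAA, 1.79% for TGACGTCA, 8.56% for GAAANNGAA, 8.86% for CCGGAAG, 35.7% for GGGCGG, 37.4% for CCAAT, 7.15% for CACGTG, 7.81% for TGANTCA and 3.20% for GAGGAAGT. A match describes letters and shows no binding.

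All 5 markers supplied for migratory cells lay in the 300. They were chosen with earlier results of these data known and no other cells were compared, so their place does not test the label. Cd63, a tetraspanin of late endosomes, had levels of 12.70, 12.93 and 12.99. Ccr7, the receptor for lymph node homing, had 12.74, 12.18 and 12.61. Cxcr4, the receptor for CXCL12, had 11.58, 11.44 and 11.65. Cd63 was lowest in replicate 1, whereas Ccr7 and Cxcr4 were lowest in replicate 2. Cd80, a ligand of CD28 and CTLA-4, ranked 136 at 11.18, 10.79 and 10.93.

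The antigens of the sort were uneven at the level of RNA. Of 9 such genes 8 were measured, since no probe set of the table analysed carried the symbol Itgax. The class II chains were bright: H2-Aa had 12.85, 12.18 and 12.63 at rank 20, H2-Eb1 had 10.79, 9.31 and 9.78 at rank 297, and H2-Ab1 had 9.79, 9.65 and 9.80 at rank 353. H2-Eb1 was above the level of rank 300 in replicate 1 alone. Cd40 ranked 853 at 8.91, 8.13 and 8.77. Ptprc, whose B220 isoform was used to remove cells, ranked 2719 (7.07 ± 0.35, SD, n = 3), and a probe set does not tell isoforms apart here. Epcam, which encodes CD326, and Sirpa were near the bottom at 4.74 ± 0.15 and 4.67 ± 0.03. Xcr1, the receptor the cells were sorted to carry, was there too, at 4.21, 4.59 and 4.52 and rank 12137 of 12780. Its level in replicate 1 was under the lowest unstimulated group mean in the table (4.32). Whether this probe set detects Xcr1 RNA was not tested.

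Genes listed for cDC1 identity fell into a bright and a dim part. Of 28 entries 20 were measured, 12 lay above the median of all genes and 5 in the 300. The 5 were Il12b, the brightest at rank 100, Cd24a, Irf8, Id2 and Nfil3. Il12b is also in the list of cytokines and Cd24a in that of costimulatory ligands. Irf8, the lineage factor, ranked 133 at 11.87, 10.20 and 10.93, and Id2, which represses other fates, ranked 143 at 10.71, 11.11 and 10.92. Nfil3 ranked 206 at 10.91, 9.96 and 10.44, and Batf3 ranked 476 at 9.75, 8.55 and 9.76. Replicate 2 was the lowest array for Irf8, Nfil3 and Batf3 and the highest for Id2. Cd24a, a surface glycoprotein, ranked 108 (11.26 ± 0.09), Ly75, the endocytic receptor DEC-205, ranked 330 (9.81 ± 0.62), and Cadm1, an adhesion molecule, ranked 2141 (7.43 ± 0.10). Clec9a, the receptor for dead cells, had 6.77, 6.57 and 6.67 at rank 3647, which is above the median of all genes and under their upper quartile. Gcsam (7.14 ± 0.37) and Ppt1 (6.71 ± 0.09) lay near it. The dim part held Plpp1 at 5.96 ± 0.45, Naaa at 5.18 ± 0.16, Wdfy4, which is needed for cross-presentation, at 4.91 ± 0.36, and Itgae, the CD103 chain of migratory cDC1, at 4.76 ± 0.14. It also held Ifi205 (4.64 ± 0.55), Snx22 (4.60 ± 0.09), Cxcl9 (4.49 ± 0.57) and Cd8a (4.45 ± 0.17). In all, 9 of the 20 lay above the upper quartile of all genes and 7, with Xcr1 and Itgae among them, under the lower quartile, so the measured list met the label cDC1 in part. Tlr3, Tlr11 and Btla were among the 8 entries with no probe set under their symbol in the table analysed. The counts above cover the measured entries only.

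Genes shared by conventional dendritic cells were brighter as a list, with a median of 7.82 over 8 measured genes and 6 of them above the upper quartile of all genes. Flt3, the growth factor receptor of the lineage, ranked 138 at 11.36, 10.53 and 10.96. Replicate 1 was highest and replicate 2 lowest. Kit, the stem cell factor receptor, ranked 369 (9.66 ± 0.62). Spi1, which encodes PU.1, ranked 979 (8.45 ± 0.25), and Zbtb46 ranked 2874 (7.01 ± 0.38). Bcl11a (5.59 ± 0.10) and Dpp4 (5.12 ± 0.31) were under the median.

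**Figure D2:**
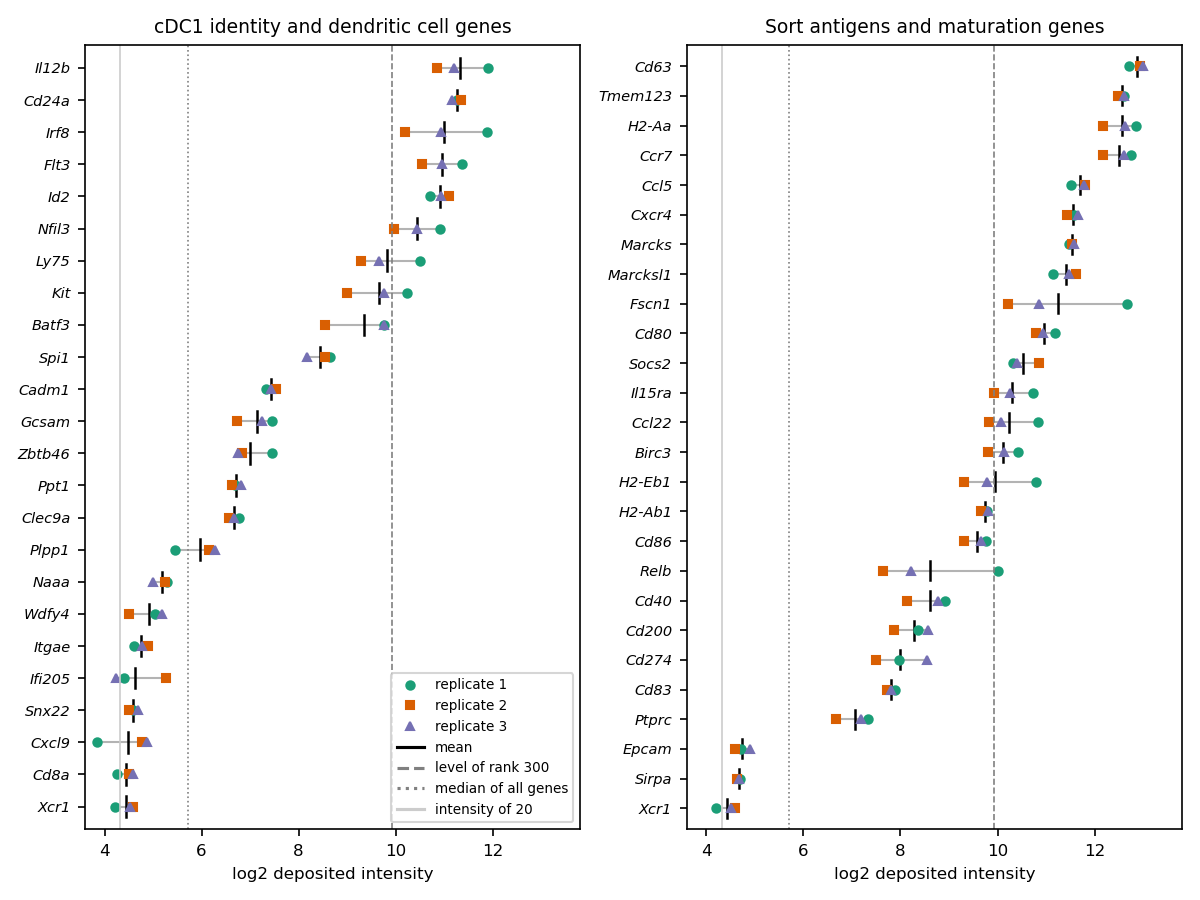
Levels of cDC1 and pan-dendritic genes (left) and of sort antigens with maturation genes (right) in the 3 arrays; points are arrays, ticks are means, and lines mark rank 300 (dashed), the median of all genes (dotted) and an intensity of 20 (solid). Il12b, Cd24a, Irf8, Flt3, Id2 and Nfil3 lie above rank 300 on average, while Xcr1 is the lowest gene in both panels.

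Markers of other cells that a lymph node sort could hold were low. Of the 63 measured genes (of 133 entries), 35 were under the lower quartile of all genes. None was in the 300, but with 2.35% of all genes there, that count alone says little. The exceptions above the upper quartile were Bst2 at 8.41 ± 0.20, a plasmacytoid marker that interferon also induces, and Vcam1 at 6.94 ± 0.38, an adhesion molecule. T cell genes ran from 4.43 for Cd3d to 5.67 for Cd5 over 12 measured genes, and Cd3e had 5.56, 5.29 and 5.46. B cell genes ran from 4.81 for Blk to 5.47 for Ighm over 5 genes. The cDC2 list ran from 4.45 for Klf4 to 5.22 for Irf4 over 6 genes, and Cd207, the Langerhans cell lectin, had 5.03, 4.95 and 5.28. The 6 keratinocyte genes all lay under the lower quartile, with Krt14 at 4.73 ± 0.17. Among the 8 stromal genes Ccl19 (6.19 ± 0.35), Col1a1 (6.06 ± 0.10) and Col1a2 (5.94 ± 0.23) lay above the median of all genes. Col1a1 had 5.95, 6.15 and 6.07 on the 3 arrays. The summed intensity of a list ran from 354 to 474 for 12 T cell genes, 143 to 238 for 5 B cell genes, 380 to 456 for 8 genes of monocytes and macrophages and 306 to 387 for 8 stromal genes. In bulk samples fewer cells of a type and less RNA per cell cannot be told apart, and the part of such cells in other values was not tested.

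Among transcription factors, those of NF-kB, IRF and STAT signalling were bright as a list, and a few of the dendritic lineage ranked high. Of 113 measured factors 8 were in the 300. Rel had 12.20, 11.65 and 11.92 at rank 44. Stat3, which carries signals of the IL-6 and IL-10 families, had 12.26, 11.03 and 11.39 at rank 71, and Stat4, which carries those of IL-12, had 11.84, 10.67 and 11.03 at rank 116. All 3 were highest in replicate 1 and lowest in replicate 2. Of 19 entries for NF-kB, IRF and STAT factors 15 were measured. All 15 lay above the median of all genes, and 14 above the upper quartile, with a list median of 8.17. Nfkb2, which encodes p100, had 10.60, 8.25 and 9.24 at rank 468, the widest spread of the named factors (SD 1.18). Irf1 ranked 829 (8.64 ± 0.69), and the dimmest of the list were Stat5b (7.12 ± 0.47), Irf3 (7.05 ± 0.24) and Irf9 (6.56 ± 0.10).

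The dendritic and myeloid factors as a list spread over the whole range, with a median of 6.08 over 46 genes. Beside Irf8, Id2 and Nfil3, Klf6, a zinc finger factor, was in the 300 at 10.78, 10.37 and 10.80. Etv6, an ETS repressor, ranked 315 at 10.58, 8.99 and 10.09. Irf4, which acts in cDC2, had 5.04, 5.57 and 5.04 at rank 8304, with replicate 2 as the highest array. The dimmest were Klf4 (4.45 ± 0.28), Klf10 (4.50 ± 0.41) and Ikzf2 (4.39 ± 0.33). Ciita, the coactivator of class II genes, had 4.49, 4.57 and 4.49 at rank 11689, beside class II chains in or close to the 300.

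Of the immediate early factors only Nr4a2, an orphan nuclear receptor, was in the 300, at 11.51, 10.89 and 11.16. Its relative Nr4a3 ranked 1576 (7.85 ± 0.26), and Creb1 and Atf4, the factor of the integrated stress response, ranked 650 and 1018. Junb had 8.08, 6.37 and 7.33. Egr1 (4.37 ± 0.11), Fosl1 (4.47 ± 0.14) and Ier2 (4.97 ± 0.29) were the dimmest of the 19. None of the 33 nuclear receptors and metabolic factors was in the 300. Mxd1, an antagonist of MYC, led them at rank 434 (9.45 ± 0.56), followed by Hif1a at rank 1211 (8.17 ± 0.27). Mycl ranked 11036 at 4.64 ± 0.37.

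Both arms of antigen presentation were bright. In the class II list 4 of 16 measured genes were in the 300. Cd74, the invariant chain, had 11.49, 10.63 and 11.32 at rank 121, and Ctss, the protease that trims it, had 10.64, 10.49 and 10.67 at rank 181. Ifi30, a thiol reductase of the same compartment, ranked 328 (9.85 ± 0.08). H2-Ob (5.30 ± 0.95) and Ctsl (4.59 ± 0.15) were the dimmest beside Ciita. In the class I list 6 of 19 were in the 300. Below B2m came the proteasome activator genes Psme2 (11.88, 11.16 and 11.78) and Psme1 (11.09, 10.75 and 11.01), then the immunoproteasome genes Psmb8 (10.67 ± 0.38) and Psmb9 (10.19 ± 0.54). Replicate 2 was the lowest array for all 4. Tap1, the peptide transporter, had 11.18, 9.07 and 10.15 and was above the rank 300 level in 2 of the 3 arrays. Cd1d1, which presents lipids, was the dimmest (5.55 ± 0.26). A further 3 entries of the class I list sat only on probe sets with several symbols and are not named.

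The ligands for T cells were led by Cd24a, Cd80 and Cd86. Of 12 measured costimulatory ligands 2 were in the 300 and 10 above the median of all genes. Cd86, the second ligand of CD28, had 9.77, 9.30 and 9.65 at rank 389. Icam1, the ligand of LFA-1, had 9.73, 7.35 and 8.12 at rank 1019. Its array values spanned more than those of Cd86, with replicate 1 far above the others. The 3 dimmest members were Icosl, Tnfsf9 and Tnfsf14. Icosl, the ICOS ligand, ranked 5958 (5.84 ± 0.66). Tnfsf9, the 4-1BB ligand, had 5.89, 5.92 and 5.26, beside a median of 5.71 over all genes, and Tnfsf14 had 4.95, 4.83 and 4.89. Of 12 coinhibitory and tolerance genes, Cd47, the ligand of Sirpa that restrains phagocytosis, was the only member in the 300, at 10.81, 10.70 and 10.66. Cd200 ranked 1123 (8.27 ± 0.37) and Cd274, which encodes PD-L1, ranked 1392 at 7.96, 7.49 and 8.54. Pdcd1lg2, the other PD-1 ligand, ranked 4002 (6.51 ± 0.21). Ido1, the tryptophan-degrading enzyme, had 7.39, 6.51 and 6.86.

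Among 12 measured chemokine receptors, Ccr7 and Cxcr4 were in the 300 and no other was above the upper quartile. The next, Ccrl2, had 6.46, 6.51 and 6.45 at rank 4103. Ccr10 (5.74 ± 0.18) and Cx3cr1 (5.47 ± 0.29) followed, and Ccr4 (4.77 ± 0.36) was among the 3 dimmest. Of the receptors for lipids and nucleotides, Ptger4, the EP4 receptor for prostaglandin E2, led at 8.13 ± 0.27. P2rx4 (7.58 ± 0.93), S1pr1 (7.51 ± 0.21), P2ry10 (7.31 ± 0.68) and Ptafr (6.88 ± 0.36) came next, and S1pr5 was at 4.73 ± 0.16.

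Cytokine receptors had 5 of 30 measured members in the 300. After Flt3 came Csf2rb2 at 11.50, 10.14 and 10.84 and Csf2rb at 11.23, 9.27 and 10.09, close paralogs that encode beta chains for GM-CSF and related cytokines and may share probes. Il15ra, which presents IL-15 to other cells, had 10.72, 9.94 and 10.26, and Il6st, the shared gp130 chain, had 10.54, 9.50 and 10.05. All 5 were highest in replicate 1 and lowest in replicate 2, and without replicate 1 the count was 3. Il4ra ranked 303 (9.92 ± 0.85). Csf1r, the receptor of macrophages, was the dimmest at 4.76 ± 0.19. In the TNF receptor family none of 18 was in the 300. Tnfrsf4 (OX40) led at 10.31, 8.95 and 9.45, followed by Cd40, Tnfrsf1b (8.28 ± 0.86), Tnfrsf9 (4-1BB, 8.20 ± 0.83) and Tnfrsf11a (RANK, 8.01 ± 0.28).

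Adhesion genes were mostly dim, with a median of 5.09 over 25 genes. Itga4, the alpha 4 integrin chain, had 12.45, 11.44 and 11.89 at rank 43, and Selplg, the ligand of P-selectin, had 11.82, 10.26 and 10.91 at rank 134. Itgb1, the partner chain of Itga4, ranked 1355 (8.04 ± 0.21), whereas Itgb2, the common leukocyte chain, was listed at 4.41 ± 0.40 and rank 12320. Whether its probe set detects Itgb2 RNA was not tested. Tetraspanins had Cd63 and Tspan13 (10.66 ± 0.26) in the 300, with Cd9 at rank 352 (9.75 ± 0.53). Among 12 lectins, scavenger and Fc receptors, Ly75 was followed by Clec2d (9.11 ± 0.12) and Clec7a, the receptor Dectin-1, at 8.88, 8.72 and 8.74. Of 23 innate sensors and adaptors none was in the 300. Irak3, an inhibitor of Toll-like receptor signalling, led at 10.15, 9.43 and 9.82, before Casp1 (7.48 ± 0.44) and Aim2 (7.33 ± 0.35).

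Genes for secreted proteins spread over the whole range, and a few ranked high. Above the median of all genes lay 9 of 18 measured chemokines, 13 of 29 cytokines and 17 of 24 other secreted proteins. No probe set of the table carried 16 of the 35 chemokine entries, 26 of the 57 cytokine entries and 18 of the 42 others. These shares therefore cover the measured entries only. The median of the chemokines was 5.55, under that of all genes, and 3 were in the 300. Ccl5, a chemokine that attracts T cells, had 11.51, 11.81 and 11.78 at rank 60. Cxcl16, which draws CXCR6-bearing T cells, had 12.03, 11.23 and 11.61 at rank 66, and Ccl22, which draws CCR4-bearing T cells, had 10.83, 9.82 and 10.07 at rank 232. Replicate 1 was the lowest array for Ccl5 and the highest for Cxcl16 and Ccl22. Cx3cl1 came next at 9.12, 8.11 and 7.91, and then a gap to Cxcl10 (6.30 ± 0.82). Cxcl10 had 7.25 in replicate 2 and 5.89 and 5.77 in the others. Ccl17, which shares the receptor of Ccl22, had 5.77, 5.98 and 5.74, and Ccl19, the ligand of CCR7, was at 6.19 ± 0.35.

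Il12b was the only cytokine of 29 measured in the 300 (3.45%, beside 2.35% of all genes). It encodes the p40 chain shared by IL-12 and IL-23 and had 11.90, 10.85 and 11.21 at rank 100. The gene for its p35 partner was not analysed here. Il15 ranked 420 at 9.29, 9.54 and 9.68, and its presenting chain Il15ra was in the 300. Il18bp, the soluble inhibitor of IL-18, ranked 1148 (8.24 ± 0.48). Mif (7.30 ± 0.25) and Tgfb1 (6.79 ± 0.18) came next, and Csf3, Lta and Inhba were the dimmest at 4.53 ± 0.21, 4.47 ± 0.35 and 4.36 ± 0.15. The list median was 5.51. Of 24 other secreted or shed proteins, Cst3 and Mmp25, a membrane-anchored metalloprotease, were in the 300. Mmp25 had 11.71, 8.99 and 10.47. Adam19 (9.40 ± 0.78), Psap, the saposin precursor (9.37 ± 1.09), and Clu, the chaperone clusterin (9.15 ± 0.28), were in the first 600.

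**Figure D3:**
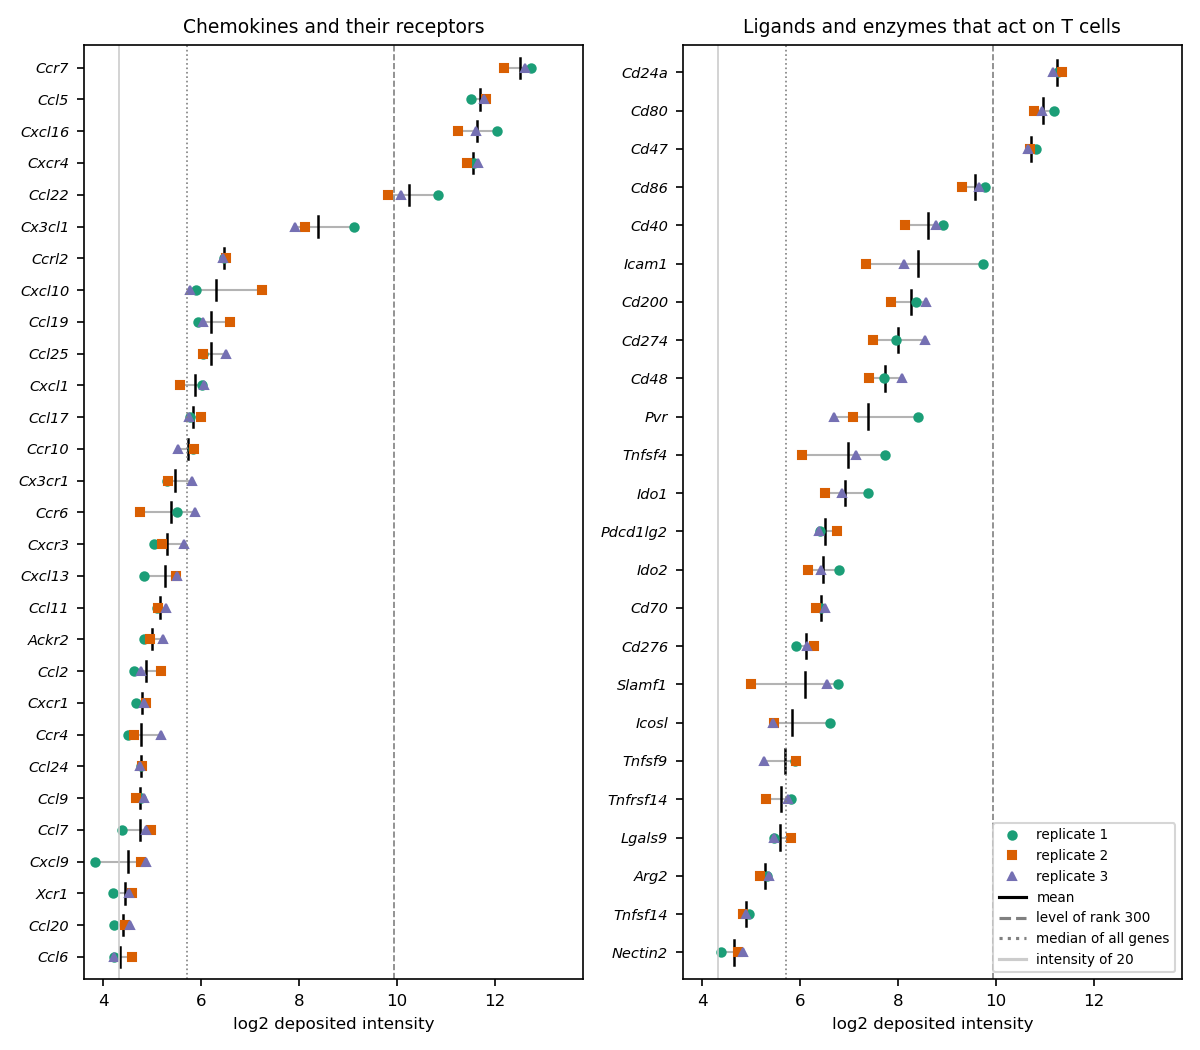
Levels of chemokines and chemokine receptors (left) and of ligands and enzymes that act on T cells (right) in the 3 arrays, drawn as in the plot of identity genes. In the left panel 5 genes lie above rank 300 (Ccr7, Ccl5, Cxcl16, Cxcr4, Ccl22) and most others lie near or under the median of all genes at 5.71.

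Apart from the 5 supplied markers, the genes of the migratory, mature state had the highest median of the immune gene lists (9.82). Of 52 entries 48 were measured. All 48 lay above the median of all genes, 44 above the upper quartile and 24 in the 300, beside 2.35% of all genes. The list was written with knowledge of such cells and of earlier results on these arrays, so its level is a description. Tmem123, a surface mucin-like protein, had 12.61, 12.49 and 12.61 at rank 18. Marcks had 11.47, 11.53 and 11.58 and Samsn1, an adaptor, 11.51, 11.49 and 11.51. The last had the smallest spread of the 300 (SD 0.01). Fscn1, which bundles actin in the dendrites of mature cells, had 12.67, 10.22 and 10.85, a 5.47-fold range between arrays. Further members in the 300 were Serpinb6b (11.73 ± 0.18), Laptm4b (11.35 ± 0.28), Gadd45b (11.27 ± 0.82), Epsti1 (10.71 ± 0.14), Socs2, a cytokine signal inhibitor (10.52 ± 0.30), Serpinb9, which blocks granzyme B (10.37 ± 0.55), Rogdi (10.04 ± 0.41) and Anxa3 (9.98 ± 0.05). The dimmest members were Pdcd1lg2, Icosl and Ccl17.

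Genes of CD40 and NF-kB signalling were above the median in 29 of 34 measured and in the 300 in 6. Beside Rel these were the inhibitors Nfkbib (11.56, 10.35 and 10.84) and Nfkbia (11.05, 10.44 and 10.82), then the CD40 adaptor Traf1 (10.89, 9.78 and 9.99), Birc3, a ubiquitin ligase of the receptor complex (10.42, 9.79 and 10.14), and Tab2 (10.38, 9.71 and 9.95). Each of the 6 was highest in replicate 1 and lowest in replicate 2. Ikbkg (5.24 ± 0.23) and Ikbke (4.62 ± 0.13) were among the dimmest. Of 25 survival and death genes Birc3, Bcl2l14 (10.38 ± 0.18) and Cflar, the inhibitor of caspase 8 (10.18 ± 0.17), were in the 300. A further 3 entries of this list sat only on probe sets with several symbols, the brightest at 11.19, above these genes. Mcl1 ranked 433 (9.45 ± 0.07), and the BH3-only genes Bid (5.22 ± 0.41), Bik (4.86 ± 0.20) and Bbc3 (4.83 ± 0.17) were the dimmest.

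Ribosomal proteins were the largest block of the 300. Of 58 measured genes named by pattern, 43 were in it, and the list median was 11.54 at a median rank of 76. Rps12 had 12.89, 13.31 and 13.23, and Rps6 had 12.65, 12.94 and 12.86. Replicate 1 was the lowest array for both. The dimmest were Rps4l (6.01), Rpl30 (5.89) and Rpl12 (5.11), and ribosomal genes have many processed copies that can share probes. Of 76 oxidative phosphorylation subunits 14 were in the 300, led by Uqcrh (11.34, 12.06 and 12.06) and Cox6b1 (11.30, 12.10 and 11.77). Of 43 proteasome subunits 8 were in it, with Psma6 (10.57 ± 0.36) as the brightest that is not in the class I list. Eef1a1, Eif3h (10.56 ± 0.42) and Eif3e (10.43 ± 0.30) were the translation factors in it, out of 57.

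The actin cytoskeleton had 15 of 45 measured genes in the 300, with a list median of 9.49. After Actb came Pfn1, profilin (12.30, 12.05 and 12.21), Tmsb10 (11.95 ± 0.44), Myo1g (11.76 ± 0.73), Myl6 (11.55 ± 0.06) and Tmsb4x, thymosin beta 4 (11.47 ± 0.26). Arpc2 (11.40 ± 0.14), Cdc42 (10.91 ± 0.13), Rac1 (10.87 ± 0.04) and Lcp1 (10.12 ± 0.79) were also in it, whereas Cotl1 (5.64 ± 0.32) and Gsn, gelsolin (5.52 ± 0.17), were under the median of all genes. Of 32 lysosomal genes Cd63, Laptm4b, Npc2, a cholesterol carrier (10.92 ± 0.51), Laptm5 and Ctss were in the 300.

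Stress genes were bright with Hspa8, the constitutive HSP70 chaperone, at 12.96, 12.55 and 12.66, and Dusp1, a MAP kinase phosphatase, at 12.35, 10.04 and 11.62. Dusp1 was 4.97-fold apart between replicates 1 and 2. Fth1 and Ftl1, the ferritin chains, were at 11.29 ± 0.18 and 10.93 ± 0.37, and Hmox1 at 4.50 ± 0.18. Of 45 interferon-stimulated genes those in the 300 were Psmb8, Psmb9 and Tap1, which the class I list holds too. Samhd1 (9.73 ± 0.17) and Gbp4 (9.41 ± 0.42) followed. Of 27 cell cycle genes Cdkn1b, the inhibitor p27, was the member in the 300, at 10.56, 11.60 and 11.23. These are values of the brighter of its 2 probe sets, which lay 3.98 apart. Another entry of the list sat only on a probe set with several symbols, at 10.32. Pcna was at 9.14 ± 0.22, Tk1 at 7.53 ± 0.03 and Cdc20 at 4.77 ± 0.35. Glycolysis had Hk1, with the probe set gap given above, and Pfkfb3 (10.63 ± 0.61) in the 300, and Aldoa at 8.83 ± 0.49. Another glycolysis entry sat only on probe sets with several symbols, the brightest at 11.72. The Hk1 probe set had 11.05, 11.82 and 11.72. Many bright probe sets with several symbols name both Hk1 and the ribosomal gene Rpl17, such as 1 at 11.23, 11.87 and 11.64. Whether the Hk1 level comes from Hk1 or from Rpl17 RNA was not tested. None of 21 cholesterol genes was in the 300, with Fdft1 as the brightest (8.72 ± 0.15).

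**Figure D4:**
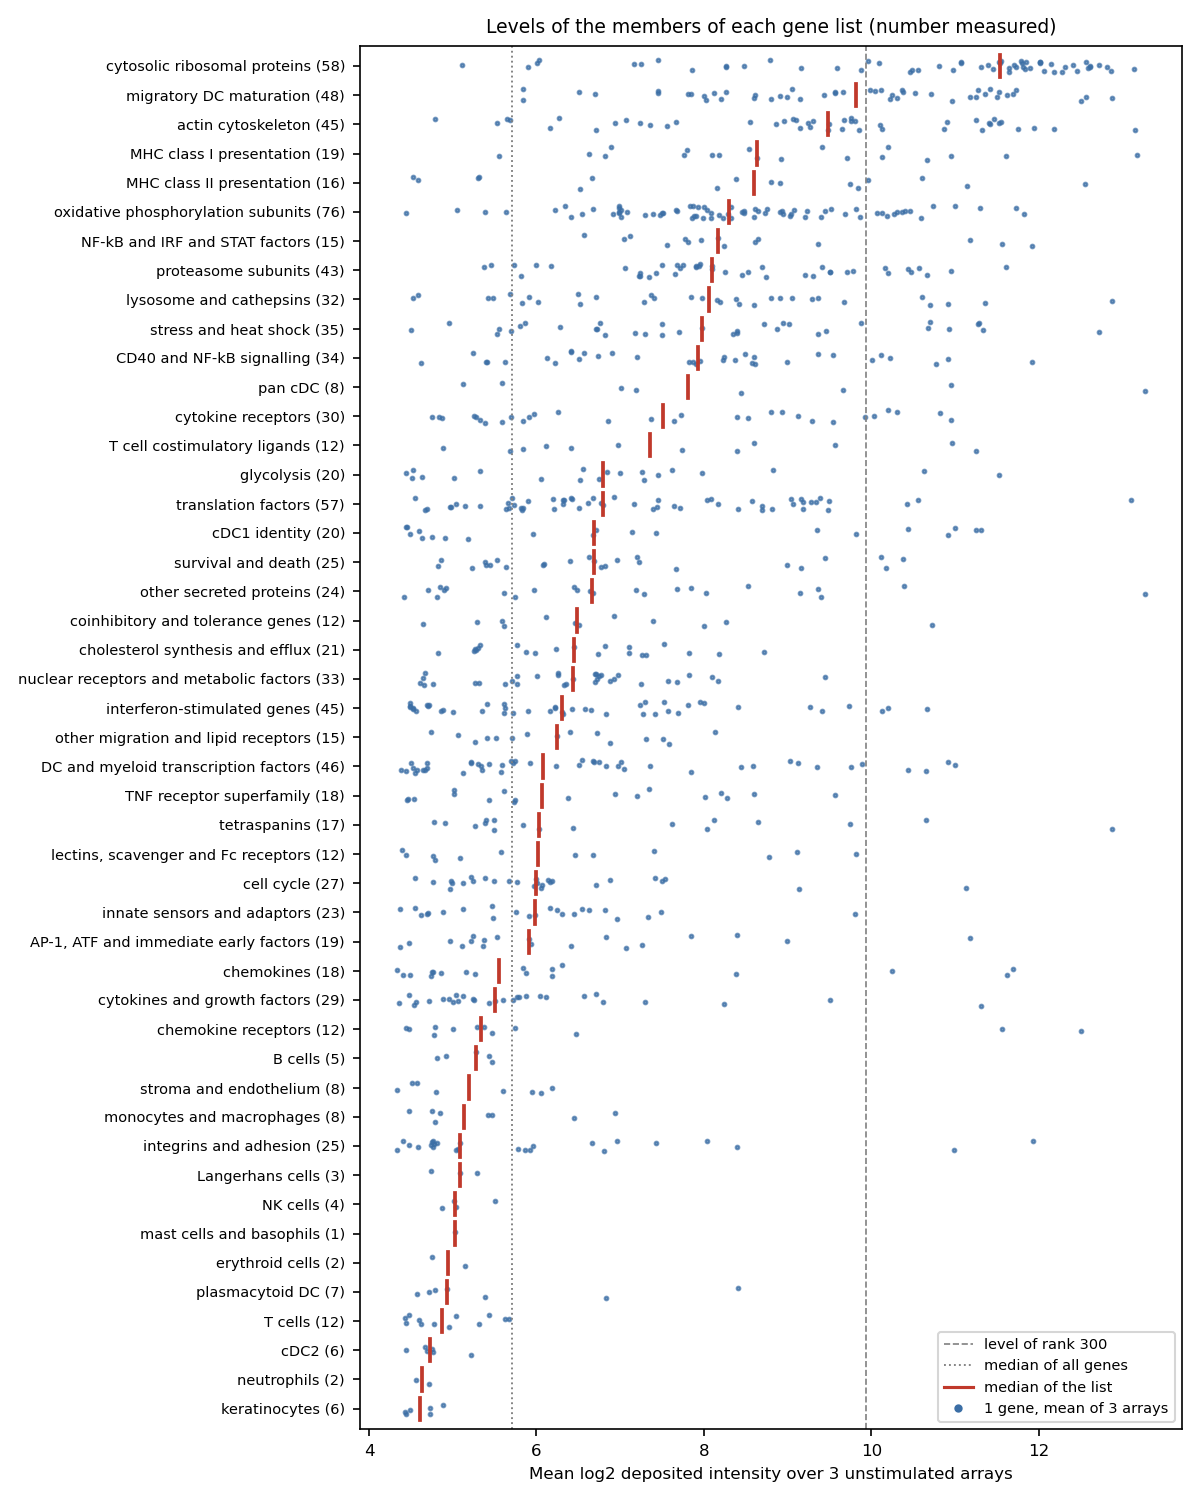
Mean level of each measured member of the gene lists (points) with the list median (red bar), ordered by median; the number measured is in parentheses, and the supplied markers and sort antigens are not drawn. Among the lists drawn, ribosomal proteins (median 11.54) and maturation genes (median 9.82) lie highest, and the lists of other cell types lie under the median of all genes at 5.71.

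Agreement on the 300 varied by array. Of the 300 genes, 216 were among the 300 brightest of every array, 74 of 2 arrays and 10 of 1 array. The own top 300 of replicates 1, 2 and 3 held 249, 269 and 288 of them. The largest SDs belonged to Ramp3, a receptor activity-modifying protein (11.92, 8.98 and 10.24; SD 1.48), Mmp25 (SD 1.36), Laptm5, a lysosomal membrane protein (12.07, 9.43 and 10.62; SD 1.32), and Fscn1 (SD 1.27). Dusp1, Tap1, Csf2rb, Syngr2 and Pgap6 followed with SDs from 1.18 down to 0.98. All these were highest in replicate 1 and lowest in replicate 2. COX2, the mitochondrially encoded oxidase subunit, ran the other way at 9.83, 11.73 and 11.23. Beside Samsn1, small SDs were those of Malat1, a nuclear non-coding RNA (11.40, 11.44 and 11.41), Txn1, Tuba1a, Rac1, Sumo2, Anxa3, Cstb and Marchf5, all under 0.05. Of the 300 genes, 87 had an SD under 0.2 and 74 an SD over 0.5.

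The difference between replicates 1 and 2 varied by gene group and by brightness. Its median was 0.05 over all genes and 0.18 over the 300, with 176 of the 300 higher in replicate 1. After scaling to the same interquartile range these medians turned to -0.036 and -0.99, with 41 of the 300 higher in replicate 1. Over all probe sets that range was 2.27 in replicate 1 and 1.86 in replicate 2. The scaling shrinks distances from the array median in replicate 1 and stretches them in replicate 2. It thus lowers bright genes in replicate 1 against replicate 2 by construction, and the turns of bright lists below 0 say little. In a wide band of ranks just below the 300, the median deviation from a gene's mean was 0.207 in replicate 1 and -0.194 in replicate 2. The next 5 lists had median ranks from 834 to 1470, in that band. Oxidative phosphorylation subunits, at a median rank of 1096, went the other way. As deposited, the median difference was 0.96 for NF-kB, IRF and STAT factors (14 of 15 genes higher in replicate 1), 0.73 for class I and 0.67 for class II. For lysosomal genes it was 0.63 (27 of 32) and for CD40 and NF-kB signalling 0.62 (30 of 34). It was -0.36 for ribosomal proteins (14 of 58) and -0.59 for oxidative phosphorylation subunits (15 of 76). With the arrays quantile normalised or scaled to the same interquartile range these 7 medians kept their sign but not their size. After interquartile scaling they were 0.19 for NF-kB, IRF and STAT factors, 0.05 for class I and for class II, 0.12 for lysosomal genes and 0.11 for CD40 and NF-kB signalling. They were then -1.56 for ribosomal proteins and -1.21 for oxidative phosphorylation subunits. For maturation genes the median was 0.50 as deposited (40 of 48), 0.38 after quantile normalisation and -0.34 after interquartile scaling, and for actin genes it was 0.50, 0.26 and -0.18. Of all 49 lists, 34 had a median above 0 as deposited, and 15 of these turned below 0 after interquartile scaling and 4 after quantile normalisation. Among the 15 were also the supplied markers (0.39 to -0.88), stress genes (0.28 to -0.36) and pan-dendritic genes (0.36 to -0.14). The highest and lowest arrays named for single genes are those of the deposited scale. The part of array spread, RNA amount or cell state in these differences was not tested.

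**Figure D5:**
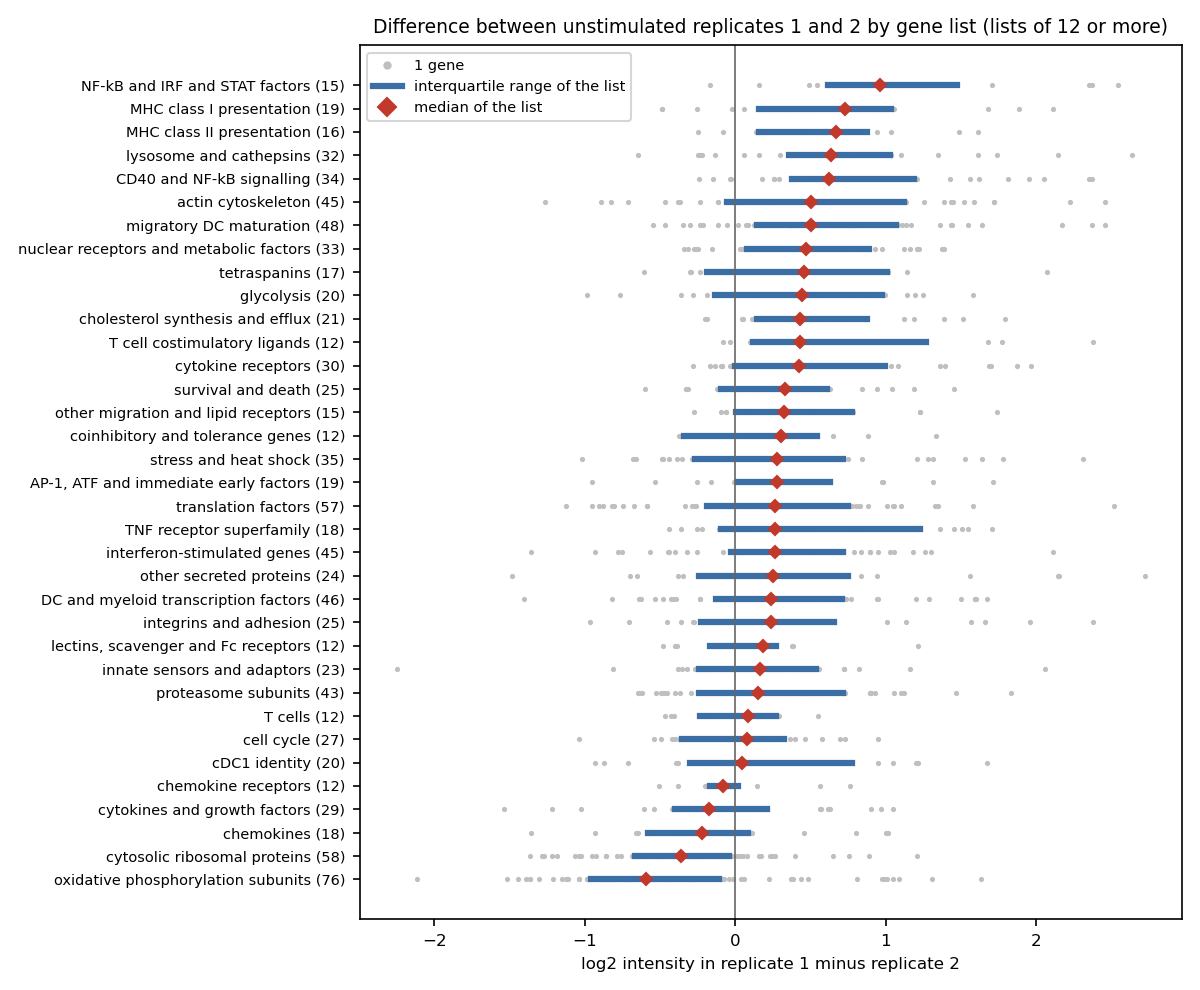
Level in unstimulated replicate 1 minus replicate 2 for each gene (grey points), with the median (diamond) and interquartile range (bar) of each list of at least 12 measured genes. NF-kB, IRF and STAT factors lie furthest right (median 0.96) and oxidative phosphorylation subunits furthest left (median -0.59) on the deposited scale.

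At rank 300 the genes were close together. The last inside were Rpl36 (9.96), H2-Eb1 (9.96), Rtn3 (9.95), Micos10 (9.94) and Gramd3 (9.93), and the first outside were Pik3r1 (9.93), Crebbp (9.93), Il4ra (9.92), Ssu72 (9.92) and Wdr1 (9.92). A total of 50 genes lay within 0.1 of the level of rank 300, less than the median SD of the 300 genes (0.31).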

How the data were processed

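A table of 17551 probe sets by 6 arrays, which the authors deposited as intensities, was made with Affymetrix Expression Console and RMA (background correction, normalisation and probe summary) per the submitters' processing notes. No version, setting or filter was found in the labels. Values are linear, so log2 was taken. In the table, 0 probe sets had an unstimulated geometric mean under 20, and 587 had a stimulated one under 20. By the platform annotation 13963 probe sets had 1 symbol, 970 several and 2618 none, and only the first were named. Python 3.11.15, pandas 2.3.3 and numpy 2.4.6 were used, and ranking was tested on simulated data. The array number limits precision. The members and the 49 gene lists were chosen with earlier results of these data known. Named genes are the 30 brightest, list members in the 300, the 5 brightest and 3 dimmest of each list, all measured sort antigens, supplied markers and cDC1 genes, 5 genes on each side of rank 300 and the 10 largest and 10 smallest SDs. Predicted genes are named only among the 30 brightest or beside rank 300. Alternatives covered the probe set rule, averaging, scaling, filter, list size and leaving out each array. The scaling of differences between arrays was added after seeing the data. Promoters and gene types come from RefSeq.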

Additional observations from a re-analysis of the deposited data

How the results depend on the processing

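Under alternatives that kept the list at 300 genes, 234 to 300 of them remained, the fewest when probe sets with several symbols were kept. Leaving out each array in turn kept 282 to 292 of the 300 and gave 142 to 145 list genes in place of 145. A list of 100 genes held 66 list genes and 4 of the 5 supplied markers, and a list of 600 held 222 and all 5, as fewer or more genes must. Of 539 counts of single lists at 300 genes, 15 moved by over 1.5 times, among them CD40 and NF-kB signalling from 6 to 3 with several-symbol probe sets kept. Interquartile scaling turned the median of replicate 1 minus replicate 2 from 0.50 to -0.34 for maturation genes. It went from 0.50 to -0.18 for actin genes, from 0.18 to -0.99 for the 300 and from 0.048 to -0.036 for all genes. That scaling lowers bright genes in replicate 1 by construction, and any further cause was not tested. No paired analysis was possible because only 1 group was described and no result came from a test. Signal over background was not analysed here, so low levels such as that of Xcr1 have no detection limit here.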

Other observations

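The rule on symbols left out many bright probe sets. At or above the level of rank 300 there were 469 probe sets with 1 symbol, 262 with several and 93 with none. Of the 262, 172 name a ribosomal protein among their symbols, beside the 43 ribosomal genes named on probe sets with 1 symbol. Of the 300 genes, 91 had more than 1 probe set, and for 44 of these another probe set of the gene lay under the level of rank 300.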
